A study of Homo sapiens with 6 samples.

Results

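Solute carriers are the membrane proteins that move amino acids, sugars, vitamins, ions, metals and metabolites across the plasma membrane and the membranes of organelles. Their genes were taken by name (SLC followed by a digit) from the 2 deposited RNA tables, and 226 names matched. A gene was kept when it reached at least 1 CPM (its counts as a share of the table total, scaled to 1000000) in any of 4 RNA libraries, with its highest transcript standing for the gene. This left 160 genes, against 66 below that floor, out of 8205 gene names at the same floor in the series. Rows in both tables were found for 138 of them, a row in the ME-180 table alone for 7 and a row in the SiHa table alone for 15. A carrier without a row was not analysed here. The members just inside the floor were SLC35F3 and SLC22A13 at 1.02 CPM and SLC15A1 at 1.09 CPM, and those just outside were SLC10A2 at 0.926 CPM and SLC9B1 and SLC26A4 at 0.896 CPM. The name rule also took 2 genes that are no carriers, SLC9A3R2, which encodes a scaffold protein, and SLC22A18AS, an antisense gene. Where measured, both are kept in counts over all solute carriers and left out of the substrate classes. The strand setting of the counting is not given, so reads of SLC22A18AS cannot be told apart from those of SLC22A18.

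The series holds 6 samples of human cervical carcinoma cell lines with 1 library per group, and the carriers were read in its 4 RNA libraries. ME-180, a squamous line, is the labelled source of a p63 knockdown library (column label shp63) and a control library (plko). SiHa, a second cervical line, gave a p63 overexpression library and a vector library. The remaining samples, a p63 chromatin immunoprecipitation and its input from ME-180, were not used for the carriers. Cells of all groups were at passages given by the labels as a range shared by both lines. The labels do not say whether the modified cells were 1 clone or a pool. Without replicates the conditions could not be tested. Each ratio sets 1 library against 1 other, so the 95% intervals speak only for counting error.

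Solute carriers fall into families by sequence, and the family largely predicts the cargo. Exchangers of the SLC7 family work as pairs with the heavy chain SLC3A2, and SLC16 members move lactate and other monocarboxylates with protons. SLC39 and SLC30 members move zinc in opposite directions. SLC25 members serve the inner mitochondrial membrane, and several SLC35 members supply the Golgi with nucleotide sugars. Squamous and other carcinoma cells take up amino acids and glucose through several of these carriers. Of these families, SLC2A1 and SLC2A3 had no row for either RNA experiment, so their level was not read. SLC7A5 and SLC7A11 were also not among the genes kept. The substrate classes below thus do not cover their families in full. TP63 encodes p63, a p53 relative that binds DNA and keeps up the basal layer of stratified epithelia.

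The libraries held between 10046579 and 14207637 counts over the rows of the tables. The highest TP63 transcript had 6 counts in the library labelled knockdown and 5619 in the ME-180 control, and 179 in the SiHa overexpression library and 7 in the vector library. All 7 measured epithelial markers of 11 listed, TP63 itself among them, were lower in the library labelled knockdown. Their summed level was 168 CPM against 73881 CPM in the control, where KRT5 alone had 62894 CPM. Of 6 fibroblast markers 4 had a row, with a summed level of 167 CPM against 133 CPM, and they moved apart. FBN1 had 97.9 CPM in the library labelled knockdown and 4.91 CPM in the control, COL3A1 16.3 CPM against 0.833 CPM and COL1A1 52.2 CPM against 127 CPM, while LUM was below the floor in both. Of 4 neural markers 3 had a row, with a summed level of 124 CPM against 36.9 CPM. KIF1A carried that sum with 105 CPM against 0.0926 CPM, whereas TUBB3 had 18.6 CPM against 34.0 CPM and SNAP25 0 CPM against 2.87 CPM. Of 4 immune markers 3 had a row, with 4.38 CPM against 52.8 CPM. CD68 carried that sum with 3.78 CPM against 50.4 CPM, while CD14 and CD74 each had 3 counts against 13. Over the 138 carriers with rows in both tables, the library labelled knockdown correlated with its control at 0.672 (Pearson, log2 of CPM + 1), below the 0.814 that it gave with the vector library of SiHa. The ME-180 control and the vector library of SiHa gave 0.763, and the SiHa pair 0.992. All are descriptions across genes that share libraries and depth. Over 6604 genes at the floor the order was the same, with 0.746 between the library labelled knockdown and its control and 0.854 between it and the vector library of SiHa, so it is not particular to the carriers. Whether the library labelled knockdown came from ME-180 could not be settled from these counts, and its ratios are called ME-180 ratios by the labels alone. The part that this distance between the libraries labelled ME-180 has in the values below was not tested, and in bulk RNA a lower level per cell and fewer cells with the RNA cannot be told apart.

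The knockdown comparison asks which carriers differ in ME-180 when p63 is reduced. At the 1 CPM floor 140 solute carriers could be read in ME-180. On the scale of CPM plus a pseudocount of 1, the library labelled knockdown had 45 of them raised by 2-fold or more and 36 lowered by as much. Together these were 57.9% of the carriers, beside 48.9% of 6783 genes of the table, of which 28.2% were higher and 20.6% lower. The median log2 ratio was 0.44 for the carriers and 0.28 for all genes. Without SLC9A3R2, which is no carrier, 44 of 139 were higher and 36 lower (31.7% and 25.9%), with a median of 0.42. Scaling by trimmed means removed the shift of all genes (median 0.00195) and left 35 carriers higher and 38 lower, with a carrier median of 0.15. The 95% interval of the count ratio lay wholly above 2 for 37 carriers and wholly below 0.5 for 29 (beside 23.6% and 18.4% of all genes). In the authors' deposited table, 35 carriers were higher and 39 lower at an adjusted p below 0.05 (beside 22% and 24.9% of all genes). With 1 library per group that p has no replicate spread behind it.

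**Figure D1:**
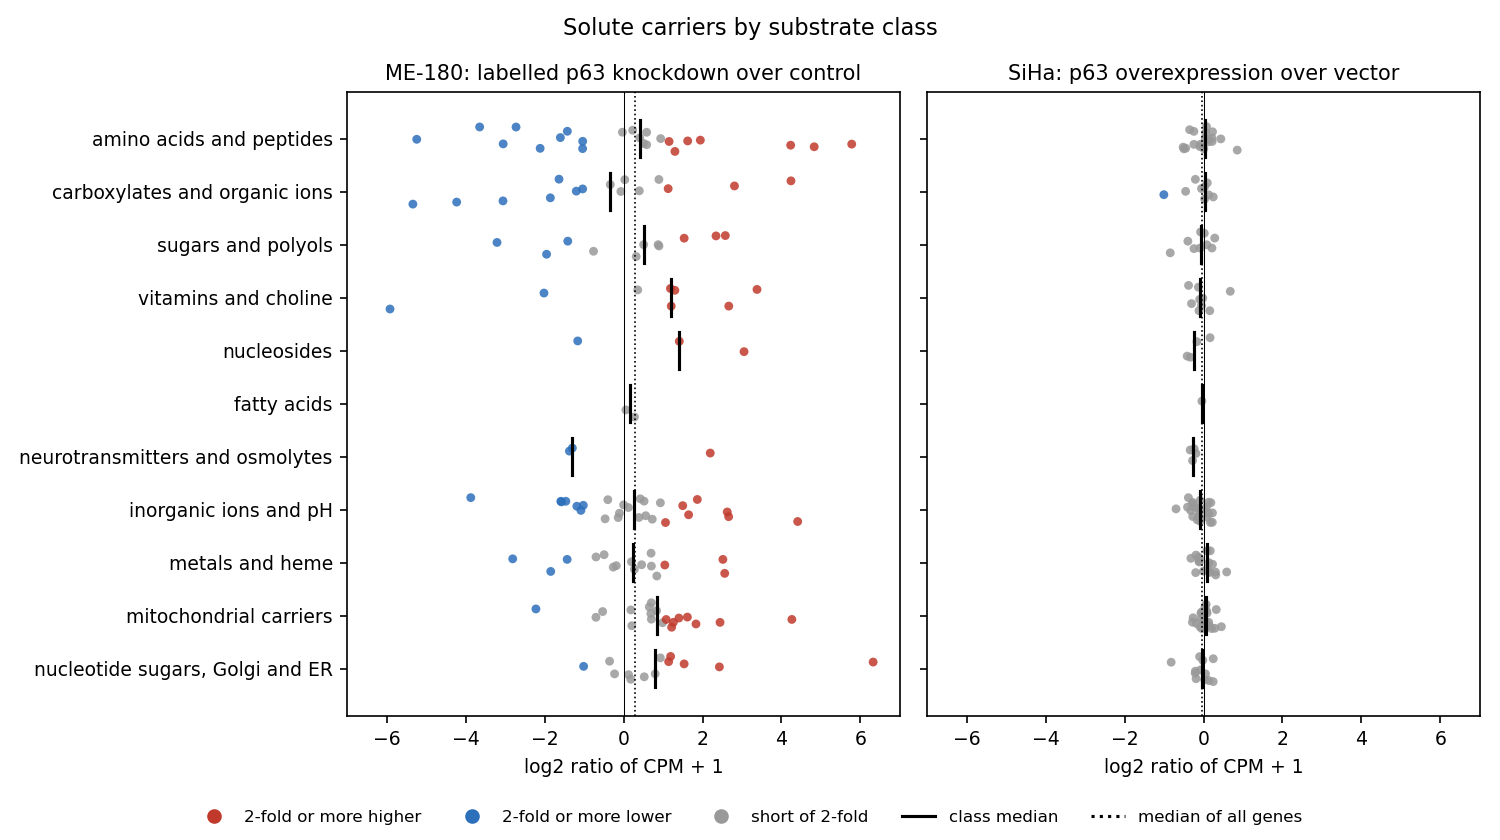
Log2 ratios of CPM + 1 (horizontal axis) for each solute carrier with at least 1 CPM in either library, by substrate class (rows), in ME-180 (left, library labelled knockdown over control) and SiHa (right, overexpression over vector). In ME-180 the points run from -5.92 to 6.32 in most classes on both sides of 0, and in SiHa all lie between -1.01 and 0.85.

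Substrate classes differed in how their members split, while over all genes 28.2% were higher and 20.6% lower. Among 19 mitochondrial carriers 8 were higher and 1 lower (42.1% and 5.26%), with a median log2 ratio of 0.83. The class of nucleotide sugars and other Golgi and endoplasmic reticulum cargo was assigned by SLC family. Of its 13 members 5 were higher and 1 lower (38.5% and 7.69%, median 0.80). The 5 were SLC35D3, SLC35E2, SLC35E2B, SLC35F1 and SLC35G2, whereas SLC35A1, SLC35A2, SLC35B3 and SLC35C1 did not reach 2-fold. SLC35F1 has no settled cargo, and the near-identical SLC35E2 and SLC35E2B may share reads. The split is thus one of the class as assigned and not of shown nucleotide sugar carriers. Among 8 vitamin and choline carriers 5 were higher and 2 lower (62.5% and 25%, median 1.20). Carboxylate and organic ion carriers leaned the other way, with 7 of 15 lower and 3 higher (46.7% and 20%, median -0.34). Amino acid and peptide carriers split, with 9 of 23 lower and 7 higher (39.1% and 30.4%, median 0.41). Inorganic ion carriers had 7 of 26 higher and 7 lower (26.9% each, median 0.25). Metal carriers had 3 of 16 each way (18.75%, median 0.24) and sugar carriers 3 of 11 each way (27.3%, median 0.51). The inorganic ion and sugar classes lay near the shares of all genes. With trimmed mean scaling the medians of the inorganic ion and metal classes turned to -0.02 and -0.03, while the other classes of at least 5 genes kept their sign.

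**Figure D2:**
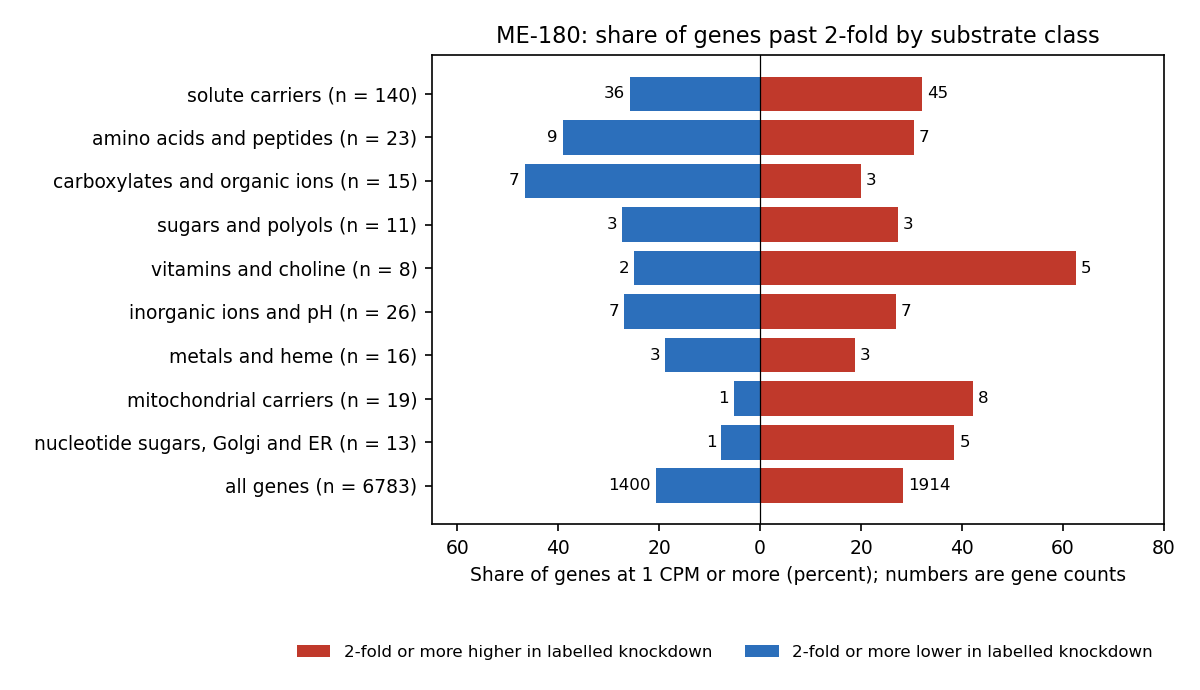
Percent of genes at 1 CPM or more in either ME-180 library (horizontal axis) that were at least 2-fold higher (red, right) or lower (blue, left) in the library labelled knockdown than in the control, for classes of at least 5 genes, all solute carriers and all genes; the numbers at the bars are gene counts. Mitochondrial carriers show 8 genes higher and 1 lower, and carboxylate carriers 3 higher and 7 lower.

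The amino acid and peptide carriers lower in the library labelled knockdown included SLC7A8, SLC1A4, SLC1A3, SLC3A2 and SLC15A2. SLC7A8, a light chain that exchanges large neutral amino acids, had 6.07 CPM in the library labelled knockdown and 267 CPM in the control, and 2.92 and 2.60 CPM in the SiHa overexpression and vector libraries. Its level was 43.9-fold lower than in the control (95% interval 34.1 to 57.6), and only the ME-180 control held it above 10 CPM. SLC1A4, which exchanges alanine, serine and cysteine, had 42.8 CPM against 362 CPM in the control, 8.46-fold lower (7.66 to 9.37), beside 12.1 CPM with overexpression and 10.98 CPM with the vector in SiHa. SLC1A3, a glutamate and aspartate carrier, had 35.4 CPM against 240.0 CPM, 6.77-fold lower (6.06 to 7.59). The heavy chain SLC3A2 had 226 CPM against 608 CPM, 2.69-fold lower (2.57 to 2.83), and stood at 814 and 699 CPM in the SiHa overexpression and vector libraries. SLC15A2, a peptide carrier, had 7 counts against 219, 29.1-fold lower (13.9 to 73.2). The other members called lower were SLC15A3 (0 counts against 36) and SLC38A4 (0 against 22), and SLC6A17 and SLC38A10 at log2 ratios of -1.04 each.

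Other amino acid carriers were higher in the same library, among them SLC7A2 and SLC7A3, which carry arginine and lysine. SLC43A1, a sodium-independent carrier of large neutral amino acids, had 99.8 CPM in the library labelled knockdown and 0.833 CPM in the control, a ratio of 120 (62.9 to 263). SLC7A2 had 408 counts against 5, a ratio of 87.8 (37.3 to 272), and SLC7A3 had 179 counts against 0. With 3 counts put in place of 0, SLC7A3 was 64.2-fold higher (lower 95% limit of the counts themselves 51.6). In SiHa the vector library held 11.2 CPM of SLC7A2 and 2.89 CPM of SLC7A3, between the values of the ME-180 libraries. SLC1A5, the main glutamine exchanger of many tumour lines, had 357 CPM against 115 CPM, a ratio of 3.10 (2.91 to 3.31), and SLC6A15, a sodium-coupled neutral amino acid carrier, 60.2 CPM against 14.9 CPM, a ratio of 4.04 (3.39 to 4.84). SLC6A9, a glycine carrier, had a log2 ratio of 1.15, and SLC38A5 had 17 counts against 1. SLC38A1, a glutamine carrier with 463 CPM against 395 CPM, and SLC38A9, a lysosomal amino acid carrier with 20.01 CPM against 14.8 CPM, did not reach 2-fold. The family members SLC1A4 and SLC1A5 thus stood on opposite sides, as did SLC7A8 and the SLC7A2 and SLC7A3 pair.

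The amino acid response, in which the factor ATF4 raises synthesis and uptake genes, is known to act on several carriers, SLC3A2 and SLC1A4 among them. Of 22 genes listed for this response, 11 had a row in the ME-180 table, and 7 of them were higher and 2 lower (63.6% and 18.2%, beside 28.2% and 20.6% of all genes), with a median log2 ratio of 2.41. ASNS, asparagine synthetase, had 2441 counts in the library labelled knockdown and 114 in the control, and CTH, which makes cysteine, 879 against 11. SLC3A2 and SLC1A4 were lower in the same pair of libraries, with log2 ratios of -1.43 and -3.05. Of all 23 amino acid and peptide carriers 7 were higher and 9 lower. Which of these the response acts on was not tested. Of 14 listed targets of NRF2, the regulator of antioxidant genes, 6 had a row, and 5 were lower (83.3%, beside 20.6% of all genes) and 0 higher (median -2.74), with GCLC, which limits glutathione synthesis, at 541 counts against 4582.

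Promoter sequences (250 bases before to 50 bases after the gene start, RefSeq, build GRCh38.p14) were found for 127 of the 160 members and are shown for 6 genes. SLC47A2, SLC7A8, SLC5A5 and SLC43A1 had, among called members with a promoter sequence and at least 100 counts, the 2 lowest and the 2 highest ratios. SLC3A2 and SLC19A1 were added after seeing that their windows hold searched motifs. Both strands were searched for the core of the amino acid response element (TGATGNAA), the core of the antioxidant response element (TGACNNNGC) and the p53 family decamer. Capitals mark a match, and none of these overlapped another. The windows are chr17:19718930-19719229 on the minus strand, chr14:23155271-23155570 on the minus strand, chr11:62881449-62881748 on the plus strand, chr21:45562976-45563275 on the minus strand, chr19:17871695-17871994 on the plus strand and chr11:57515653-57515952 on the minus strand, in the order below, each printed 5′ to 3′ on the gene's strand.
SLC47A2: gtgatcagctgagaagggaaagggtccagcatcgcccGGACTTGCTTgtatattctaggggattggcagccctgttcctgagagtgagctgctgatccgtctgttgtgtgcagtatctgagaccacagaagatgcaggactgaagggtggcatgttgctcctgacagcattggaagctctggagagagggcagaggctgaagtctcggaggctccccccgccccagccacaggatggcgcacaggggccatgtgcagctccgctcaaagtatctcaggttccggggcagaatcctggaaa
SLC7A8: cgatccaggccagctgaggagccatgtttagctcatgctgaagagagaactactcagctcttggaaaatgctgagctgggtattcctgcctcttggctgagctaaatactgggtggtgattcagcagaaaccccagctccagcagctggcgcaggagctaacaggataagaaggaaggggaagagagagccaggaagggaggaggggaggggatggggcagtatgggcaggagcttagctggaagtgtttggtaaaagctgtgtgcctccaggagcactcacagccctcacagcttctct
SLC3A2: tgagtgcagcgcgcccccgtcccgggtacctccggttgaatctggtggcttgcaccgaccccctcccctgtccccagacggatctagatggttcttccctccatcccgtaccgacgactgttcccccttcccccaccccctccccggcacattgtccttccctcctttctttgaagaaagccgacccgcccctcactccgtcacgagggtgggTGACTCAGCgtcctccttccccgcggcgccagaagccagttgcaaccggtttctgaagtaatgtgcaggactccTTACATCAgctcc
SLC19A1: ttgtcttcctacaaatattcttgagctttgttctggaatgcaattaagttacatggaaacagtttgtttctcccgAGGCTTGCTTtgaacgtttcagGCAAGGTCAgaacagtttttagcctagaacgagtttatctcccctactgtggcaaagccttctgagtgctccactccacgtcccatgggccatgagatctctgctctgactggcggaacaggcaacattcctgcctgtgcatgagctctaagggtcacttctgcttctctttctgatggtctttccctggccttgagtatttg
SLC5A5: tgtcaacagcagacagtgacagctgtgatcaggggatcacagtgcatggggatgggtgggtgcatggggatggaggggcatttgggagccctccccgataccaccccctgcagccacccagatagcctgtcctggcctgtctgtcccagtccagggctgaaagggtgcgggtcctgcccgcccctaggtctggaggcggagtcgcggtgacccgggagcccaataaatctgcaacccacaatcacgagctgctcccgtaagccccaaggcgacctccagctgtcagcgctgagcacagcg
SLC43A1: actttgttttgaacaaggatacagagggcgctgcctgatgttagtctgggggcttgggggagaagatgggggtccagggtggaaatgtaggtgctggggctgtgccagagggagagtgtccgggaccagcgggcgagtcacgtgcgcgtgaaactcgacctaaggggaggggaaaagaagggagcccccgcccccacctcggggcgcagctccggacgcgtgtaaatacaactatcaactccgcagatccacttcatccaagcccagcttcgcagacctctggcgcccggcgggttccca
SLC47A2 holds 1 p53 family decamer, SLC19A1 1 p53 family decamer and 1 antioxidant core, and SLC3A2 1 amino acid response core and 1 antioxidant core. SLC7A8, SLC5A5 and SLC43A1 hold no match in these windows. The p53 family decamer occurs in 7 of 127 members' promoters (5.51%) and in 6.54% of 27305 promoters, the antioxidant core in 16 members (12.6%) and 13.6% of promoters, and the amino acid response core in 7 members (5.51%) and 3.67% of promoters. Among 15843 promoters of protein-coding genes the shares were 5.93%, 14.3% and 2.53%, in the same order of motifs. A match is a run of letters and not a shown binding site. The p63 peaks are in another build and were not joined to these windows.

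Monocarboxylate carriers, which move lactate, pyruvate and ketone bodies, differed by member. SLC16A7, a high-affinity form, had 0 counts in the library labelled knockdown and 192 in the control. With 3 counts put in place of 0, it was 59.5-fold lower (lower 95% limit of the counts themselves 47.9). SLC16A3, a lactate exporter of glycolytic cells, had 2 counts against 97, 45.1-fold lower (12.2 to 378), but had 244 CPM with overexpression and 253 CPM with the vector in SiHa. SLC16A1, the most widely expressed form, had 399 CPM against 302 CPM and did not reach 2-fold. SLC47A2, a proton-coupled extruder of organic cations known mainly from kidney, had 0 counts against 427. With 3 counts put in place of 0, it was 132-fold lower (lower 95% limit of the counts themselves 107). The SiHa overexpression and vector libraries had 0 and 9 counts of SLC47A2. SLC13A3, a sodium-coupled dicarboxylate carrier, was higher with 93 counts against 5, and SLC22A31 with 180 against 0. SLC10A3, SLC16A12, SLC51A and SLC22A20 were lower at log2 ratios from -1.86 to -1.04.

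SLC37A4, which brings glucose 6-phosphate into the endoplasmic reticulum, had 77.7 CPM in the library labelled knockdown and 14.5 CPM in the control, a ratio of 5.35 (4.50 to 6.39). SLC50A1, a sugar carrier of the Golgi and plasma membrane, had 72.2 CPM against 24.2 CPM, a ratio of 2.98 (2.58 to 3.44). SLC2A6, a member of the glucose carrier family, had 111 counts against 11, while 637 counts with overexpression and 697 with the vector were found in SiHa. SLC2A9, a family member that moves urate, had 1 count against 99, a 92.1-fold lower level with an interval of 16.1 to 3672. The fructose carrier SLC2A5 had 0 counts against 18, and SLC5A10 0 against 31. Of 21 listed genes of glucose and lactate metabolism, 15 had a row, with 0 higher and 4 lower (26.7%, beside 20.6% of all genes; median log2 ratio -0.43), among them PKM, a pyruvate kinase, at -1.91 and GAPDH at -1.25.

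Vitamin and choline carriers included the lowest log2 ratio of all the carriers. SLC52A1, a riboflavin carrier, had 7 counts in the library labelled knockdown and 1099 in the control, 146-fold lower (70.6 to 364), and 10.01 CPM with overexpression and 10.4 CPM with the vector in SiHa. SLC52A2, its widely expressed relative, was higher, with 48.3 CPM against 20.6 CPM, a ratio of 2.34 (1.99 to 2.75). SLC19A1, the reduced folate carrier, had 85.6 CPM against 7.31 CPM, a ratio of 11.7 (9.29 to 14.9), and 36.96 CPM with overexpression and 40.1 CPM with the vector in SiHa. SLC46A1, which moves folates with protons, had 28.2 CPM against 21.8 CPM and did not reach 2-fold. In the choline-transporter-like family, SLC44A2 had 94.1 CPM against 384 CPM, 4.08-fold lower (3.80 to 4.39), whereas SLC44A5 had 57.03 CPM against 8.14 CPM, a ratio of 7.002 (5.59 to 8.87).

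Among nucleoside carriers, SLC29A1, the main equilibrative carrier of the plasma membrane, had a ratio of 2.74 (2.34 to 3.21) and SLC29A4, which also moves monoamines, 297 counts against 29, a ratio of 11.01 (7.51 to 16.7). SLC29A3, an intracellular form, was 2.36-fold lower (1.88 to 2.97). The osmolyte carriers were lower: SLC6A6, which takes up taurine, had 52.2 CPM against 137 CPM, and SLC6A8, which takes up creatine, 93.8 CPM against 232 CPM. SLC17A9, a carrier of nucleotides into vesicles, had 36 counts against 0. The 2 fatty acid carriers, SLC27A2 and SLC27A6, had log2 ratios of 0.06 and 0.28.

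Ion carriers split within families that share a cargo. SLC12A8, of the cation-chloride cotransporter family, had 2 counts in the library labelled knockdown and 179 in the control, 83.2-fold lower (22.7 to 692), while SLC12A2, the sodium-potassium-chloride importer, had 54.1 CPM against 36.4 CPM, short of 2-fold. SLC5A5, the sodium iodide symporter of thyroid, had 382 counts against 9, a ratio of 45.6 (23.8 to 101). SLC4A2, an anion exchanger for chloride and bicarbonate, had 136 CPM against 47.6 CPM, a ratio of 2.86 (2.59 to 3.18), and SLC9A7, a sodium-proton exchanger of the Golgi, 54.05 CPM against 16.6 CPM, a ratio of 3.26 (2.75 to 3.88). SLC24A1, which exchanges sodium for calcium and potassium, had a ratio of 4.30 (3.08 to 6.13). The sulfate carrier SLC26A2 and the phosphate carrier SLC20A2 were lower by a little over 2-fold, at log2 ratios of -1.02 and -1.08. Of 15 listed partner genes, including the sodium pump and carbonic anhydrases, 8 had a row, 7 of these reached 1 CPM, and 1 was higher (14.3%, beside 28.2% of all genes) and 2 lower (28.6%, beside 20.6%). FXYD3, a small regulator of the pump, had 4 counts against 6175, and CA9, a carbonic anhydrase of hypoxic tumour cells, 0 against 196.

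Among metal carriers, the zinc importers SLC39A8 and SLC39A10 were higher. SLC39A8 had 558 counts in the library labelled knockdown and 96 in the control, a ratio of 6.25 (5.03 to 7.85), and SLC39A10 had 714 against 121, a ratio of 6.35 (5.23 to 7.76). SLC30A7, which loads zinc into the Golgi, had a ratio of 2.11 (1.81 to 2.45). SLC39A11 was 2.78-fold lower (2.37 to 3.28), and SLC39A2 had 0 counts against 65. SLC11A1, a metal carrier of phagosomes, had 8 counts against 59. The iron carriers SLC11A2 and SLC40A1, which import and export ferrous iron, had log2 ratios of -0.19 and -0.26. Of 18 listed metal handling genes, 9 had a row and 8 reached 1 CPM, with 2 higher (25%, beside 28.2% of all genes) and 3 lower (37.5%, beside 20.6%), among them the copper pumps ATP7B at 1.90 and ATP7A at -2.52.

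Mitochondrial carriers were higher more often than lower (42.1% and 5.26%, beside 28.2% and 20.6% of all genes). SLC25A13, an aspartate-glutamate carrier of the malate shuttle, had 1158 counts in the library labelled knockdown and 220 in the control, a ratio of 5.66 (4.90 to 6.57). SLC25A1, the citrate carrier that supplies lipid synthesis, had 272 CPM against 75.5 CPM, a ratio of 3.60 (3.33 to 3.90), and stood at 243 and 237 CPM in the SiHa overexpression and vector libraries. SLC25A53, a carrier with no assigned cargo, had 183 counts against 0. SLC25A30, SLC25A27, SLC25A20, which carries acylcarnitines, and SLC25A45 had ratios from 2.46 to 3.14. SLC25A21, a carrier of oxodicarboxylates, was 5.16-fold lower (4.02 to 6.69). SLC25A5, an ADP/ATP exchanger, had 2314 CPM against 3763 CPM (log2 ratio -0.70), and held most of the counts of its class. Without it the summed level of the 18 other mitochondrial carriers with rows in both tables was 1878 CPM against 1120 CPM, and with it 4192 CPM against 4882 CPM. SLC25A5 has close relatives and processed copies, so its counts may hold reads of these. The trimmed mean scaling left the median of the class at 0.56.

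SLC35A1, for sialic acid, SLC35A2, for galactose, SLC35C1, for fucose, and SLC33A1, which brings acetyl-CoA into the endoplasmic reticulum, had log2 ratios between -0.23 and 0.52. The largest ratio of the carriers was that of SLC35F1, a member of the family with no settled cargo, with 795 counts in the library labelled knockdown, 0 in the control, and 83 and 163 in the SiHa overexpression and vector libraries. SLC35D3 had 64 counts against 4, SLC35G2 81 against 23, and the near-identical SLC35E2 and SLC35E2B, whose reads may be split between them, had ratios of 2.41 and 2.22.

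**Figure D3:**
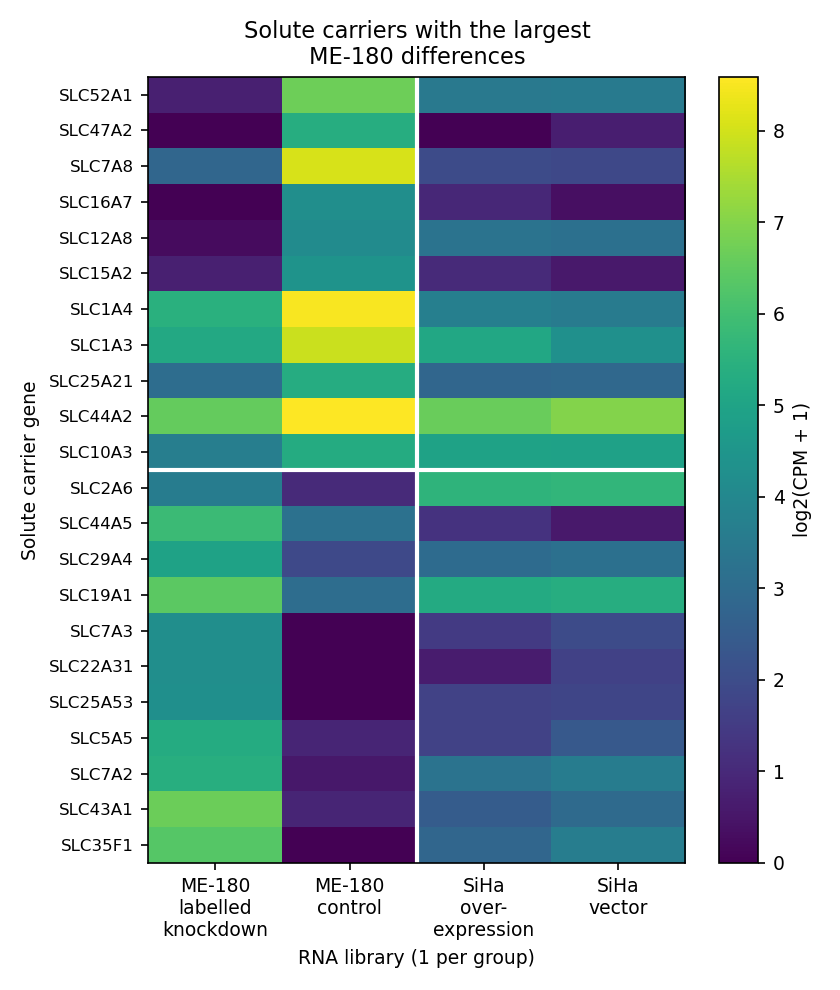
Level of the 11 lowest and 11 highest carriers of the ME-180 comparison with at least 100 counts in an ME-180 library and rows in both tables, as log2(CPM + 1) (colour) in the 4 RNA libraries (columns, 1 library each); the white line between rows separates lower from higher genes. SLC7A8, SLC47A2 and SLC16A7 are bright in the ME-180 control alone, and the 2 SiHa columns are nearly equal.

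Where a carrier had several transcripts in the ME-180 table, they moved alike. Of 59 carriers with at least 2 transcripts at the floor, 52 had the same call for all transcripts, 7 had some past 2-fold and some not, and 0 had transcripts on opposite sides. The widest range was in SLC1A3, with log2 ratios of -2.73 and -1.01 for 2 transcripts. Counts of overlapping transcripts share reads and are not independent.

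As another transporter family, ABC transporters, which use ATP to export lipids and drugs, had 8 of 21 genes at the floor higher (38.1%, beside 28.2% of all genes) and 4 lower (19.0%, beside 20.6%), with a median log2 ratio of 0.80. ABCA3, a lipid carrier, had 2018 counts in the library labelled knockdown and 73 in the control, and ABCC3, an organic anion exporter, 0 against 92. The difference between the families was not tested.

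The overexpression comparison asks which carriers differ in SiHa when p63 is raised. In SiHa 134 solute carriers stood at the floor, and 0 of them passed 2-fold upwards and 1 downwards (0.746%). Over 6995 genes the share was 1.32%, with 0.572% higher and 0.743% lower. No p-value was computed for this pair, and the authors' deposited table gave an adjusted p below 0.05 for 0 carriers, beside 0.114% of all genes higher and 0.1% lower. The gene past 2-fold was SLC22A31, with 8 counts with overexpression and 31 with the vector, which fell short of 2-fold under trimmed mean scaling. The median log2 ratio was -0.04 for the carriers and -0.05 for all genes, and class medians of at least 5 genes lay between -0.10 and 0.09.

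Counting error was small enough for many SiHa carriers to show smaller differences between the 2 libraries. The 95% interval lay above 1 for 16 carriers and below 1 for 23 of the 134, beside 14.7% and 23.8% of all genes. Without SLC9A3R2 and SLC22A18AS it lay above 1 for 16 of 132 carriers and below 1 for 22. SLC1A3, the glutamate carrier that was lower in the library labelled knockdown, had 476 counts with overexpression and 267 with the vector, a ratio of 1.85 (1.59 to 2.16). SLC25A20 had 1032 counts against 779, a ratio of 1.37 (1.25 to 1.51), SLC25A29, a carrier of basic amino acids, 2622 against 2174, a ratio of 1.25 (1.18 to 1.33), and SLC39A11 199 against 164, a ratio of 1.26 (1.02 to 1.56). On the low side, SLC35F1 had 83 counts against 163, 1.89-fold lower (1.44 to 2.50), SLC29A1 191 against 269, 1.36-fold lower (1.12 to 1.64), SLC44A2 1328 against 1798, 1.30-fold lower (1.21 to 1.40), SLC7A2 117 against 159, 1.31-fold lower (1.02 to 1.68), and SLC6A8 587 against 774, 1.27-fold lower (1.14 to 1.42). No replicate shows how far 2 libraries of the same SiHa culture would differ.

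**Figure D4:**
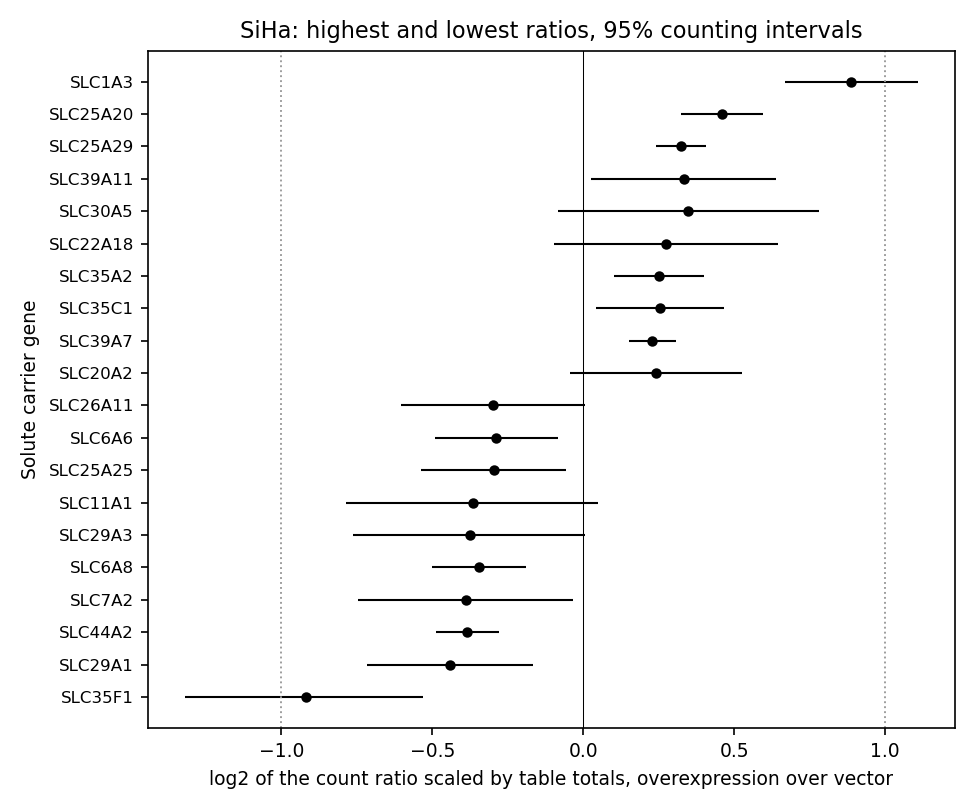
Log2 of the count ratio, overexpression over vector, scaled by table totals (horizontal axis) for the 10 highest and 10 lowest SiHa carriers with at least 100 counts in a library; bars are exact 95% counting intervals and dotted lines mark 2-fold. SLC1A3 at a ratio of 1.85 and SLC35F1 at 0.528 lie farthest out, and no point passes the dotted lines.

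The ME-180 and SiHa experiments share no library, so the carriers could be set side by side. Of 22 carriers lower in the library labelled knockdown and measured at the floor in both experiments, 4 had a SiHa interval above 1, 4 below 1 and 14 spanning 1. Those above were SLC1A3, SLC3A2, SLC6A17 and SLC39A11, and those below were SLC6A6, SLC6A8, SLC26A2 and SLC44A2. Of all genes lower in the library labelled knockdown, 24.3% had a SiHa interval above 1 and 17.1% below. Of 40 carriers higher in the library labelled knockdown, 10 had a SiHa interval below 1 and 4 above, beside 30.2% and 8.51% of all genes. The 10 included SLC35F1, SLC43A1, SLC7A2, SLC5A5, SLC22A31 and SLC29A1.

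The baseline comparison sets the ME-180 control beside the SiHa vector library, over the 13206 transcripts with a row in both tables. Cell line, experiment and any batch cannot be told apart in it, and the library labelled knockdown is compared with the same control, so neither set of ratios adds to the other. Of 131 carriers, 24 were at least 2-fold higher and 40 lower in the ME-180 control (48.9% together), beside 39.8% of 6314 genes (16.7% higher and 23.2% lower). With the totals of all rows of each table in place of the shared transcripts, 34 were higher and 26 lower, so the split, at 37.5% and 56.7% higher among those called, depended on the scaling. SLC7A8 had 2882 counts in the ME-180 control and 23 in the SiHa vector library (log2 ratio 6.33), SLC1A4 3914 against 156 (4.44), SLC47A2 421 against 9 (4.39) and SLC52A1 1099 against 148 (2.68). SLC16A3 had 95 counts against 3588 (-5.22), SLC2A6 11 against 697 (-5.15), SLC39A8 96 against 978 (-3.34) and SLC19A1 79 against 570 (-2.82). SLC16A1 (-0.06) and SLC38A1 (0.10) were close in the 2 lines.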

How the data were processed

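For each RNA experiment the authors' deposited table lists, per RefSeq transcript, raw counts as whole numbers. Its log2 fold changes and adjusted p-values are the authors' own. Per the labels' protocols, RNA was extracted with TRIzol. The submitters' processing notes name TopHat, Cufflinks, DESeq2 and hg19 without roles or versions, and for the counter and its strand setting the sources used here name none. Totals are sums over the rows of a table, and levels set across the 2 tables rest on separate totals.

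Counts were divided by the row total and scaled to 1000000. A gene name took the values of its highest transcript in a table. Log2 ratios used a pseudocount of 1, which shrinks low genes, and a gene was called at 2-fold with at least 1 CPM in either library. Count ratios carry exact 95% conditional binomial intervals for counting error, and a fold against 0 counts used 3 counts in its place. Substrate classes were assigned by SLC family (11 classes, plus genes matched by name only). Named genes were, per class and comparison, up to 3 called in each direction with the largest log2 ratio and at least 100 counts in a library, the highest member of a class, the 5 highest and 5 lowest SiHa ratios, up to 3 genes per list, and members at the edge of the floor. Other carriers, mostly family relatives, called members with fewer counts and members short of 2-fold, and some list genes were named after their values were seen. The members and lists were chosen with earlier results of these data known. The calling steps were tested on simulated counts with counting error only, so spread between libraries was not covered. For the ME-180 pair, 100 of 100 genes raised 4-fold were called at a mean of at least 5 CPM. At 1 to 5 CPM 81 of 100 raised and 85 of 100 lowered genes were called. Trimmed mean factors came from edgeR 4.0.16, other steps from Python 3.11.15, pandas 2.3.3 and scipy 1.17.1. Promoters came from RefSeq, matched for 159 of 160 members by transcript, symbol or synonym. Some items that the rule would name are not reported here.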

Additional observations from a re-analysis of the deposited data

How the results depend on the processing

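No paired analysis was possible because each group holds 1 library, and no replicate could be left out. Each comparison was recomputed under 11 alternatives (pseudocount, floor, scaling, transcript choice and fold). In ME-180 the main counts were 45 higher and 36 lower. A pseudocount of 5 gave 20 lower, and a 4-fold rule gave 20 higher and 14 lower. In SiHa the main counts were 0 higher and 1 lower. A pseudocount of 0.1 gave 2 higher and 3 lower, a 1.5-fold rule 3 higher and 5 lower, and the lowest transcript or the total of shared transcripts 2 lower. A pseudocount of 5, a floor of 5 CPM, trimmed means, median ratio factors and a 4-fold rule gave 0 lower. Between the ME-180 control and the SiHa vector library (24 higher, 40 lower), the total of all rows gave 26 lower, a 1.5-fold rule 61 lower, and a 4-fold rule 10 higher and 17 lower. The fold rules and the pseudocounts act by construction; for the other settings the cause was not tested. No called carrier turned its direction under the transcript alternatives. The pseudocounts and scalings could not show this, since a pseudocount keeps the sign and the scalings shifted the ratios by less than 2-fold. Set against the counting interval of the main ratio, 199 of 567 recomputed log2 ratios of called carriers had moved in ME-180. In SiHa 2 of 7 had moved, and between the ME-180 control and the SiHa vector library 199 of 448. Depth limits the members with few counts: ratios with 0 to 3 counts in a library have intervals that span more than 10-fold or have no upper limit.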
